A study of Mus musculus with 24 samples.

Results

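The 41 genes described here serve the breakdown of fatty acids in mitochondria and the making and work of peroxisomes. They were taken by symbol from a list, and all 41 were among the 17017 genes of the tables and among the 13215 genes tested. They comprise 18 mitochondrial enzymes, 6 genes of fatty acid activation and regulation, and 17 peroxisomal genes (8 enzymes and transporters and 9 peroxins). The RNA came from primary alveolar macrophages of wild-type BALB/cJ mice, cells that clear particles and surfactant from the alveoli, collected 20 h after recombinant cytokines were added. The 8 groups of 3 libraries were untreated cells and cells given IL-13, IL-33, IL-17A, IL-13+IL-17A, IL-33+IL-13, IL-33+IL-17A or all 3 cytokines. No other allele or agent is named for any group. Whether the 3 libraries of a group came from different animals or cultures is not said in the labels; the spread that p-values rest on is that between libraries, and it may be technical.

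Fatty acids are bound to coenzyme A by acyl-CoA synthetases, carried into mitochondria by the carnitine shuttle and shortened there in repeated rounds of dehydrogenation, hydration, dehydrogenation and thiolysis, with electrons passed on through the electron transfer flavoprotein. Peroxisomes shorten very long and branched chains, make hydrogen peroxide as they do so and break it down with catalase, and peroxins build the organelle and import its enzymes. IL-13 is a type 2 cytokine that drives alternative activation of macrophages, a state linked with fatty acid oxidation, while IL-33 is released by injured barrier tissue and IL-17A by T cells in inflammation.

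Values are in TPM, a length-scaled share of a library's reads, which the submitters computed with the whole span of a gene as its length, introns included. Reads recovered from them came to 9.11 to 12.9 M reads per library, and the members had means of 156 to 3939 reads per library. Chil3, a gene known to rise with IL-13, was at 382 ± 2.90 TPM in untreated cells and 5167 ± 131 TPM in the IL-13 group (SD, n = 3). Of 14 alveolar macrophage markers, Chil3 among them, 13 were tested, and Marco stayed under 1 TPM in every library. The 14 summed to 12289 to 14070 TPM in the 12 libraries without IL-13 and 18077 to 20668 TPM in the 12 with it. Ctsd had the highest mean in these values. Because they divide by the gene span, marker sums and the largest gene of a list also depend on intron length. Such sums can be compared only between libraries. Of the markers of other cell types, 8 epithelial ones summed to 23.6 to 28.9 TPM in the 12 libraries without IL-13 and 23.9 to 33.7 TPM in the 12 with it, most of it Krt19 and Hopx, and 5 endothelial ones to 8.45 to 12.5 TPM in the 12 libraries without IL-13 and 6.58 to 12.1 TPM in the 12 with it, most of it Vwf, with Pecam1, Cdh5, Kdr and Tie1 under 1 TPM throughout. Within the epithelial list Krt19 rose with IL-13 from 5.93 ± 1.09 to 18.0 ± 0.976 TPM, while Hopx fell from 11.9 ± 0.569 to 7.28 ± 1.10 TPM and Epcam from 2.26 ± 0.229 to 1.09 ± 0.296 TPM (SD, n = 3; limma adjusted p = 7.78e-08, 3.56e-06 and 0.00111). Krt8 and Cldn18 of that list and Cd4, a lymphocyte marker, stayed under 1 TPM. Many listed markers were not among the 17017 genes and could not be counted, Sftpc, S100a9 and Cd3e among them. Values existed for 8 of 14 epithelial, 5 of 7 endothelial and 1 of 9 lymphocyte markers. For granulocytes and mast cells they existed for 3 of 9, for fibroblasts for 4 of 10 and for monocytes and interstitial macrophages for 6 of 7. The 6 monocyte and interstitial macrophage markers summed to 1483 to 1653 TPM in the 12 libraries without IL-13 and 619 to 698 TPM in the 12 with it, most of it Cd14. The 3 granulocyte and mast cell markers summed to 136 to 177 TPM in the 12 libraries without IL-13 and 67.3 to 127 TPM in the 12 with it, most of it S100a8. The 4 fibroblast markers summed to 4.76 to 6.78 TPM in the 12 libraries without IL-13 and 2.31 to 4.22 TPM in the 12 with it, most of it Pdgfra, with Col1a1, Dcn and Pdgfrb under 1 TPM throughout. The part of these shifts in the results below was not tested, and in bulk RNA fewer cells of a type and less RNA per cell cannot be told apart. Replicate 2 of the triple combination stood apart, with 11569 genes at 1 TPM or more, the fewest of the 24 libraries, and the highest mitochondrial share of reads (1.08%).

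IL-13 raised many of the mitochondrial enzymes by small amounts. Against untreated cells 9 of 18 rose (Cpt2, Acadvl, Acads, Hadha, Hadhb, Acaa2, Eci2, Etfa and Etfb), 1 fell (Echs1) and 8 were not called, by limma at an adjusted p under 0.05. Of all tested genes 14.1% rose and 15.7% fell in this comparison. The median difference of the 18 genes was 0.16 on log2(TPM + 1), against -0.03 over all tested genes, and their differences ran from -0.16 to 0.44. Of the 17 peroxisomal genes 4 rose (Acaa1a, Cat, Pex14 and Pex16) and none fell, with a median of 0.09. None of the 6 activation and regulation genes was called with all 24 libraries. Without replicate 2 of the triple combination 1 of them was called higher and 2 lower. Members were measured more closely than most genes, with a median standard error of 0.0597 against 0.102 over all tested genes.

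The same step could be made on 4 backgrounds that share no library: IL-13 against untreated, and IL-13 added to IL-17A, to IL-33 and to IL-33+IL-17A. Over all tested genes these raised 14.1%, 12.2%, 11.2% and 10.97% and lowered 15.7%, 17.6%, 12.8% and 21.7%. With median-ratio scaling the excess of lower genes was gone, with 2229 genes higher and 2024 lower, 2114 and 2079, 1769 and 1717, and 2217 and 2146, in that order. The mitochondrial enzymes called higher numbered 9, 9, 7 and 7 of 18, and those called lower 1, 1, 0 and 1. The peroxisomal genes called higher numbered 4, 4, 2 and 2 of 17, and those called lower 0, 5, 3 and 5. Without replicate 2 of the triple combination the last of these backgrounds gave 3 peroxisomal genes lower. Acadvl, Hadha, Hadhb, Etfa and Etfb of the mitochondrial enzymes and Pex14 and Pex16 of the peroxins rose on all 4 backgrounds, as 6.72% of all tested genes did. No member fell on all 4, against 8.76% of all tested genes. Every one of the 12 libraries with IL-13 lay above every one of the 12 without for Acads, Hadhb, Etfa, Etfb, Pex14 and Pex16, a separation seen upward in 6.18% and downward in 8.87% of all tested genes.

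**Figure D1:**
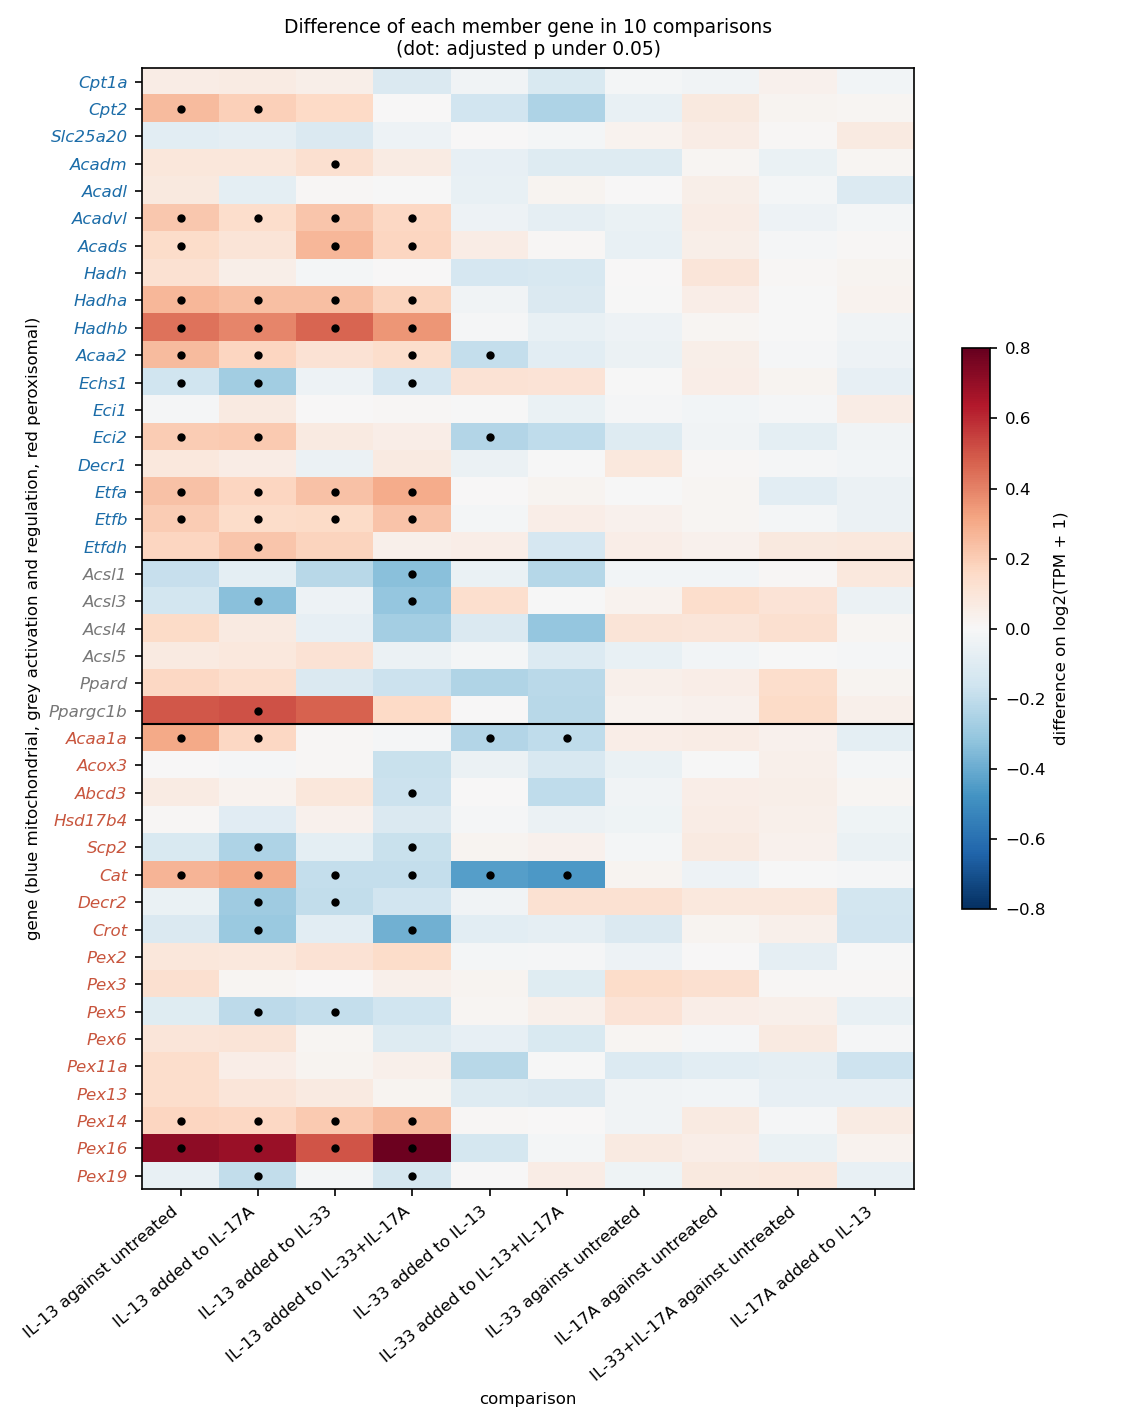
Difference of each of the 41 genes (rows, by role) in several comparisons (columns), coloured by the difference on log2(TPM + 1), blue for lower and red for higher, with a dot where the adjusted p was under 0.05. The columns in which IL-13 was added hold most of the dots, and Cat changes colour between the backgrounds without and with IL-33.

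Averaged over the 4 backgrounds, the IL-13 difference was called for 11 of 18 mitochondrial enzymes upward and 1 downward, for 6 of 17 peroxisomal genes upward and 5 downward, and for 2 of 6 activation and regulation genes in each direction. For the peroxisomal gene Cat this average joins opposite directions, as it was called higher on 2 backgrounds and lower on 2. Acaa1a was called higher on 2 backgrounds and lower on 0, with a lowest difference of -0.0075, so its average does not describe every background either. Over all tested genes 20.01% were called higher and 30.9% lower in this average, 2644 and 4079 genes, which became 3394 and 3421 with median-ratio scaling. The members' counts with that scaling were 14 mitochondrial genes higher and 1 lower, and 8 peroxisomal genes higher and 4 lower. The median was 0.14 for the mitochondrial, 0.03 for the peroxisomal and -0.01 for the activation and regulation genes, against -0.05 over all tested genes. The share of peroxisomal genes called lower, 29.4%, was close to that of all tested genes as deposited, without further scaling.

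**Figure D2:**
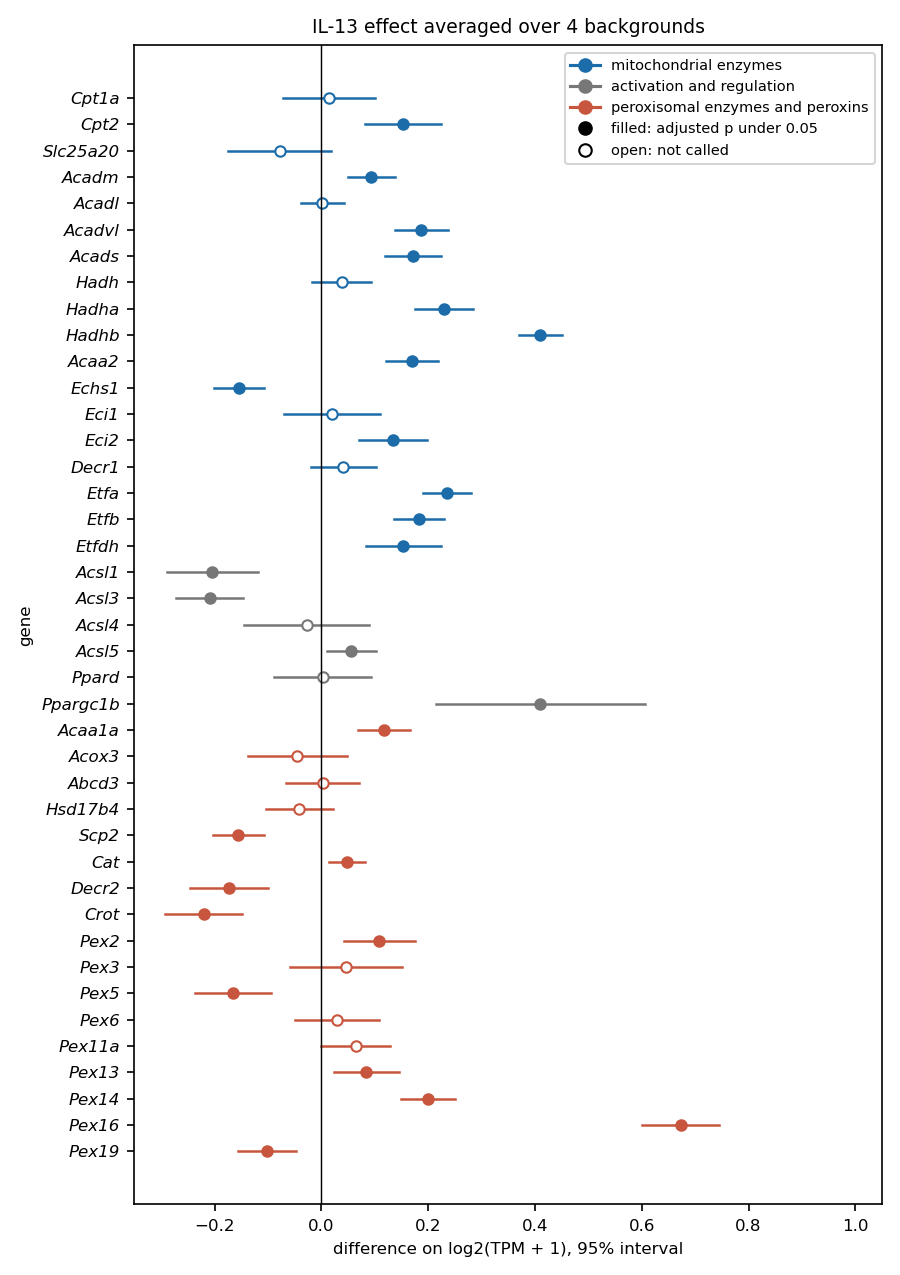
IL-13 difference averaged over 4 backgrounds for each of the 41 genes, on log2(TPM + 1), with its 95% interval from the fit; filled points had an adjusted p under 0.05. Most mitochondrial enzymes lie to the right of 0, Pex16 lies farthest right at 0.67, and the peroxisomal genes fall on both sides.

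The carnitine shuttle held 1 called gene of 3. Cpt1a, which encodes the outer-membrane carnitine palmitoyltransferase that sets the pace of entry, was at 33.9, 36.4 and 38.7 TPM in untreated libraries and 38.2, 37.9 and 37.3 TPM with IL-13. The ranges overlapped, and the difference was 0.06 with a 95% interval from -0.11 to 0.23 (limma adjusted p = 0.664). Its lowest value of all, 28.7 TPM, was in replicate 2 of the triple combination. Cpt2, the inner-membrane partner that hands the chain back to coenzyme A, was at 16.5, 17.7 and 15.7 TPM untreated and 21.9, 20.3 and 17.9 TPM with IL-13. All 3 libraries with IL-13 lay above the untreated ones, by 0.25 (SE 0.068, limma adjusted p = 0.00752), though without replicate 1 of the IL-13 group the call was lost at a limma adjusted p of 0.0574. Slc25a20, the carrier that moves acylcarnitine across the inner membrane, ran from 9.87 to 14.1 TPM over the 24 libraries and was not called in any of the 19 comparisons.

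Among acyl-CoA dehydrogenases, the flavoenzymes that open each round, Acadvl and Acads rose. Acadvl, for very long chains, was at 157, 169.9 and 165 TPM untreated and at 196, 184 and 192 TPM with IL-13. These groups did not overlap, with a difference of 0.22 (SE 0.047, limma adjusted p = 0.00146). Acadvl overlaps Dvl2 on the other strand, which was at 31.99 to 49.7 TPM, so reads of the pair may not have been told apart. Acads, for short chains, had a mean of 111 ± 4.18 TPM untreated and 123 ± 5.80 TPM with IL-13 (SD, n = 3), and it rose by 0.15 (limma adjusted p = 0.0323). That call was lost without untreated replicate 1 and without IL-13 replicate 1 or 3, at limma adjusted p of 0.134, 0.0590 and 0.161. Acadm, for medium chains, was at 35.1, 37.3 and 37.4 TPM untreated and 41.1, 38.5 and 37.7 TPM with IL-13. The difference of 0.09 was not called (limma adjusted p = 0.116), while its average over 4 backgrounds, 0.09, was (limma adjusted p = 0.000948). Acadl, for long chains, ran from 49.6 to 58.6 TPM over all 24 libraries and was not called with IL-13 (limma adjusted p = 0.166).

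The trifunctional protein, which carries out the remaining steps on long chains, gave the largest of the 18 mitochondrial differences. Hadha encodes its alpha subunit and Hadhb its beta subunit. Hadha was at 63.7, 68.8 and 68.3 TPM untreated and at 81.7, 80.7 and 79.4 TPM with IL-13. The groups did not overlap, with a rise of 0.26 (SE 0.052, limma adjusted p = 0.000564), and Hadha overlaps Garem2 on the other strand. Hadhb was at 36.4, 35.2 and 36.3 TPM untreated and at 49.8, 49.2 and 48.0 TPM with IL-13, a rise of 0.44 (SE 0.038, limma adjusted p = 3.57e-08), or 36.2% of its mean TPM. Over the 4 backgrounds its rise was 0.35 to 0.46. Its 12 libraries with IL-13 lay at 44.5 to 51.1 TPM and the 12 without at 34.3 to 36.9 TPM. The ratio of Hadhb to Hadha, which rests on gene spans and can be read only between libraries, was 0.557 to 0.657 with IL-13 (median 0.607) and reached 0.572 without (median 0.535), so these ranges overlapped.

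Hadha and Hadhb lie head to head on mm10 chromosome 5, Hadha at bases 30118304 to 30155162 on the minus strand and Hadhb at bases 30155248 to 30184593 on the plus strand, so the stretch between them is upstream of each. It is shown because both genes rose together. It lies at chr5:30155163-30155247 on the plus strand, from the RefSeq promoter table of GRCm38.p6, and capitals mark its 2 GC boxes (GGGCGG on either strand).
Hadhb upstream: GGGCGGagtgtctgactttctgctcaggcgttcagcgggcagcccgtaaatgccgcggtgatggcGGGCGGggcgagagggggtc

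Of the other later-step enzymes, Acaa2, the mitochondrial thiolase, rose from 28.0 ± 0.823 to 33.7 ± 1.52 TPM with IL-13 (SD, n = 3; difference 0.26, limma adjusted p = 0.000283). Echs1, the short-chain enoyl-CoA hydratase, went the other way. Its untreated libraries were at 115, 116 and 116 TPM and its IL-13 libraries at 101, 103 and 107 TPM, a fall of 0.16 (limma adjusted p = 0.0105). That call was lost with median-ratio scaling (limma adjusted p = 0.170), with limma-voom on recovered reads and without IL-13 replicate 1. Echs1 overlaps Paox on the other strand, and how strand was handled in counting is not given in the sources used here. Hadh, the 3-hydroxyacyl-CoA dehydrogenase for shorter chains, ran from 14.1 to 17.4 TPM over the 24 libraries and was not called with IL-13 (limma adjusted p = 0.0968).

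Of the auxiliary enzymes, which deal with double bonds, Eci2 rose from 10.4 ± 0.549 to 12.1 ± 0.103 TPM (SD, n = 3; limma adjusted p = 0.0144), and Eci1 and Decr1 were not called. Without untreated replicate 1 the Eci2 call was lost (limma adjusted p = 0.0731). Etfa and Etfb, the subunits of the flavoprotein that takes electrons from the acyl-CoA dehydrogenases, both rose, Etfa from 25.4 ± 0.475 to 30.1 ± 0.954 TPM and Etfb from 83.7 ± 1.89 to 96.6 ± 2.25 TPM (SD, n = 3; limma adjusted p = 0.000317 and 0.00146). Etfdh, the membrane oxidoreductase that passes those electrons to ubiquinone, was at 18.3 ± 0.906 and 20.9 ± 1.39 TPM, not called (limma adjusted p = 0.0562). In the average over 4 backgrounds all 3 electron transfer genes were called, at 0.23 for Etfa, 0.18 for Etfb and 0.15 for Etfdh.

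**Figure D3:**
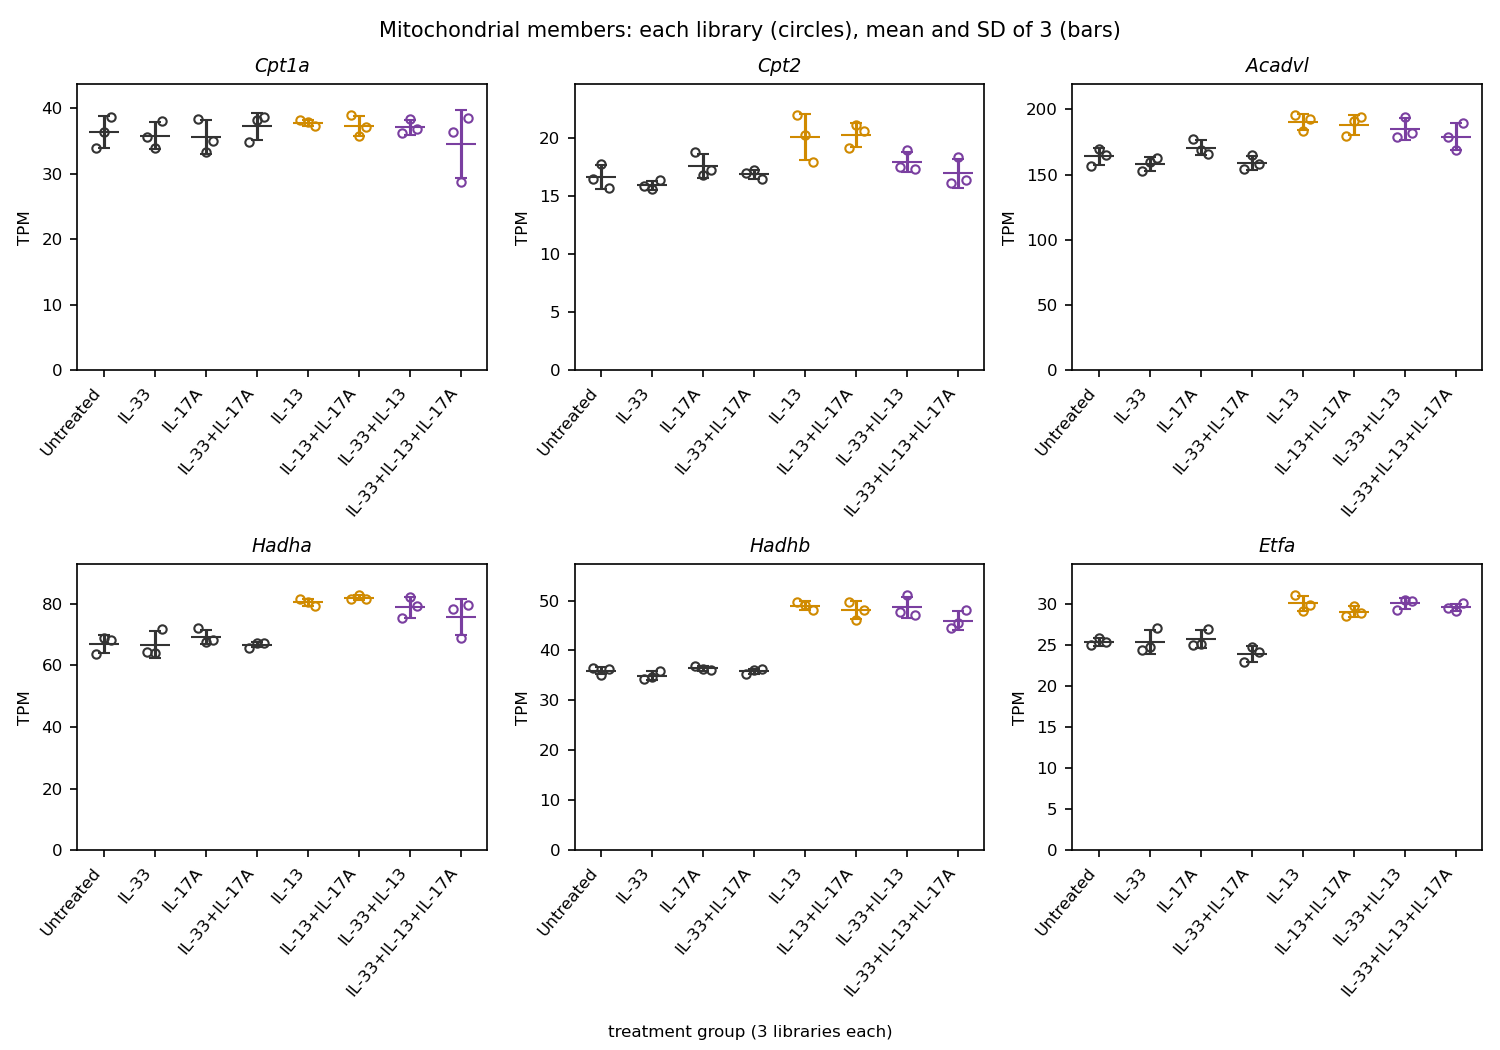
TPM (y axis, from 0) of mitochondrial members in the 8 groups (x axis), with a circle per library and the mean and SD of 3; grey groups lack IL-13, orange groups have IL-13 without IL-33 and purple groups have both. Hadhb separates all 12 libraries with IL-13 from the 12 without, and the Cpt1a groups overlap.

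Among the genes of activation and regulation, none was called in IL-13 against untreated with all 24 libraries, and some were in the average over 4 backgrounds. Without replicate 2 of the triple combination, IL-13 against untreated called 1 of these genes higher and 2 lower. Acsl1, a long-chain acyl-CoA synthetase, was at 11.5, 13.3 and 12.8 TPM untreated and 10.8, 11.6 and 10.2 TPM with IL-13. The ranges overlapped and the difference of -0.19 was not called (limma adjusted p = 0.0968). Over 4 backgrounds Acsl1 fell by 0.20 (limma adjusted p = 0.000302) and Acsl3, a synthetase of the endoplasmic reticulum and lipid droplets, fell by 0.21 (limma adjusted p = 7.91e-06). Acsl5 was higher by 0.06 in that average (limma adjusted p = 0.0399), a call made in 19 of 32 settings. Acsl4 ranged over 16.5 to 27.3 TPM, lowest in replicate 2 of the triple combination, and was not called in the average (limma adjusted p = 0.718).

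Ppargc1b, a coactivator of oxidative genes known from alternatively activated macrophages, was at low levels. It was at 1.03, 1.52 and 1.45 TPM untreated and 2.05, 2.49 and 2.31 TPM with IL-13, so that no library of either group reached into the other. The difference of 0.50 (SE 0.186, 95% interval 0.11 to 0.89) missed the threshold at a limma adjusted p of 0.0514, and the average over 4 backgrounds was 0.41 (limma adjusted p = 0.00104). Of the 12 libraries with IL-13, 11 lay between 2.05 and 2.67 TPM, and replicate 2 of the triple combination was at 0.907 TPM. Without that library the difference from untreated was called (limma adjusted p = 0.00406). Ppard, a lipid-sensing nuclear receptor, was at 8.65, 10.6 and 10.9 TPM untreated and 11.01, 12.2 and 10.8 TPM with IL-13, which overlapped, and was not called (limma adjusted p = 0.175).

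Pex16, a peroxin of the peroxisomal membrane, takes part in making new organelles. It gave the largest difference of the 41 genes on log2(TPM + 1) with IL-13 against untreated. As a ratio of mean TPM the low-level Ppargc1b rose more, from 1.33 to 2.28 TPM. Pex16 values follow. It was at 46.1, 42.1 and 41.8 TPM in untreated libraries and at 69.7, 72.1 and 73.3 TPM with IL-13. The groups were far apart, and Pex16 rose by 0.72 (SE 0.068, limma adjusted p = 1.18e-07), or 65.5% of its mean TPM. With IL-17A the 3 libraries were at 44.4, 45.4 and 44.7 TPM and with IL-13+IL-17A at 73.7, 75.2 and 70.1 TPM. With IL-33 they were at 42.4, 46.7 and 47.8 TPM and with IL-33+IL-13 at 63.4, 65.7 and 66.0 TPM. With IL-33+IL-17A they were at 40.3, 48.1 and 37.2 TPM and with all 3 cytokines at 73.2, 68.9 and 74.9 TPM. No library with IL-13 overlapped those without, and the IL-13 difference was 0.50 to 0.78 over the backgrounds. The interaction with IL-33 was not called (-0.21, limma adjusted p = 0.507). Pex16 spans bases 92374676 to 92381217 of mm10 chromosome 2 on the plus strand and overlaps Large2 on the other strand, which was at 0 to 0.453 TPM.

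The upstream region of Pex16 is shown because Pex16 had the largest rise of the members on log2(TPM + 1). It lies at chr2:92374426-92374675 on the plus strand (RefSeq, GRCm38.p6). Capitals mark 1 GC box (GGGCGG) and 1 CCAAT box, each on either strand.
Pex16 upstream: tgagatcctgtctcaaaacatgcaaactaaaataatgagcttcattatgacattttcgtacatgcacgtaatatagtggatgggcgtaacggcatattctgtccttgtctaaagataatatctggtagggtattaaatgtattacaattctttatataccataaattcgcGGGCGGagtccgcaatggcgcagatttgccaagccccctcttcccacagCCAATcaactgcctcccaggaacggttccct

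Pex14, a docking peroxin of the import machinery, rose on all 4 backgrounds by 0.17 to 0.25, and from 4.66, 4.94 and 4.58 TPM untreated to 5.38, 5.45 and 5.52 TPM with IL-13, groups that did not overlap (limma adjusted p = 0.00956). Pex5, the receptor that brings enzymes to that dock, was at 26.7, 28.4 and 29.1 TPM untreated and 27.0, 26.2 and 25.2 TPM with IL-13, which overlapped and was not called (limma adjusted p = 0.311). In the average over 4 backgrounds Pex5 fell by 0.17 (limma adjusted p = 0.000374). Pex19, a chaperone for peroxisomal membrane proteins, fell by 0.10 in the same average (limma adjusted p = 0.00283). Pex2 and Pex13, of the import machinery, rose by 0.11 and 0.08 in it (limma adjusted p = 0.00741 and 0.0204). Pex11a, which takes part in peroxisome division, was at 45.8, 54.2 and 51.4 TPM untreated and 53.8, 58.5 and 54.5 TPM with IL-13, overlapping, and was not called (limma adjusted p = 0.0978). Pex3 and Pex6 were not called either (limma adjusted p = 0.389 and 0.371), with 3.85 to 5.79 and 47.7 to 61.1 TPM over the 24 libraries.

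Of the peroxisomal enzymes other than Cat and Acaa1a, none was called in IL-13 against untreated. Abcd3, a transporter of the peroxisomal membrane, was at 10.4, 11.6 and 12.2 TPM untreated and 12.03, 11.9 and 11.8 TPM with IL-13. The groups overlapped, with a difference of 0.06 and a 95% interval from -0.07 to 0.20 (limma adjusted p = 0.524), and Abcd3 fell by 0.17 where IL-13 was added to IL-33+IL-17A. Crot, which makes carnitine esters of shortened chains for export, fell by 0.22 in the average over 4 backgrounds, Decr2, a reductase for double bonds, by 0.17, and Scp2, sterol carrier protein and thiolase, by 0.16 (limma adjusted p = 2.04e-05, 0.000357 and 9.79e-06). Acox3, an oxidase of branched chains, and Hsd17b4, the multifunctional enzyme of the later steps, were not called in it (limma adjusted p = 0.434 and 0.272).

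Cat, which encodes the hydrogen peroxide-degrading enzyme catalase, and Acaa1a, a peroxisomal thiolase, were the members whose answer to IL-13 differed with IL-33. Cat was at 116, 119.5 and 122 TPM untreated, 119.6, 122 and 122 TPM with IL-33, 118, 110.4 and 119 TPM with IL-17A and 117, 120.1 and 119 TPM with IL-33+IL-17A. With IL-13 it was at 148, 145 and 139.5 TPM and with IL-13+IL-17A at 143, 142 and 145 TPM. With IL-33+IL-13 it was at 104, 108 and 106 TPM and with all 3 cytokines at 105, 101 and 106 TPM. The 6 libraries with IL-13 and no IL-33 were thus the highest of the 24 and the 6 with IL-13 and IL-33 the lowest, with no overlap on either side of the 12 without IL-13.

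In the fit, IL-13 raised Cat by 0.27 on its own and by 0.30 beside IL-17A, and lowered it by 0.19 beside IL-33 and by 0.19 beside IL-33+IL-17A (limma adjusted p = 1.86e-06, 4.63e-07, 0.000158 and 0.000135). The test of that difference, the interaction of IL-33 and IL-13, gave -0.46 (SE 0.045, limma adjusted p = 1.27e-05) without IL-17A and -0.48 (SE 0.032, limma adjusted p = 3.74e-08) averaged over IL-17A. IL-33 without IL-13 left Cat at a difference of 0.02 from untreated (95% interval -0.04 to 0.09). Because the directions differ, the averaged IL-13 difference of 0.05 for Cat describes no group.

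Acaa1a was at 169.6, 169 and 169 TPM untreated and 216, 203 and 208 TPM with IL-13, without overlap, a rise of 0.30 (SE 0.046, limma adjusted p = 4.38e-05). With IL-33+IL-13 it was at 168, 192 and 174 TPM and with all 3 cytokines at 179, 167 and 171 TPM, which overlapped the 169 to 182 TPM of the 12 libraries without IL-13. The interaction of IL-33 and IL-13 was -0.29 (limma adjusted p = 0.0309), and -0.23 averaged over IL-17A (limma adjusted p = 0.00562). The former was called in 20 of 32 settings, and without the 4 libraries that carry the highest numbers in their titles the latter was not called (limma adjusted p = 0.0989). Those 4 libraries all had IL-33: replicate 3 of IL-33, replicates 2 and 3 of IL-33+IL-17A and replicate 3 of the triple combination. Without them replicate 1 is the only library of IL-33+IL-17A. Acaa1a is nearly identical to Acaa1b and overlaps Myd88 on the other strand, so its reads could have been divided differently and its value is uncertain. Cat and Acaa1a were the members called in either interaction, where 0.393% of all tested genes were higher and 0.779% lower in the single interaction and 1.46% and 2.11% in the averaged one.

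**Figure D4:**
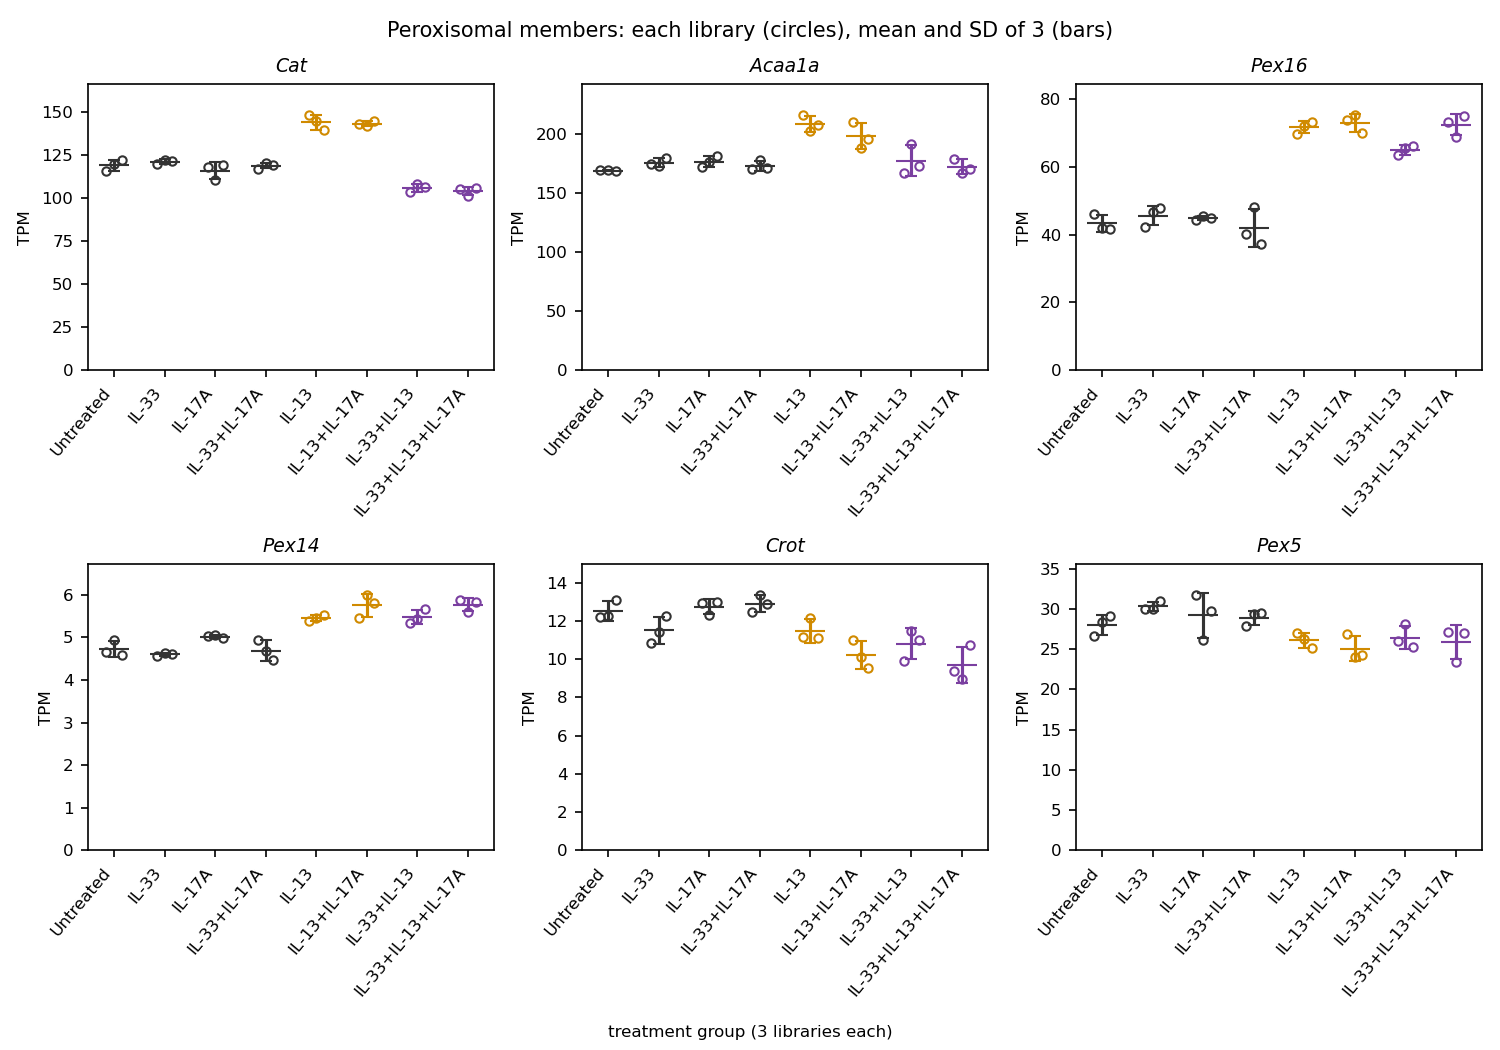
TPM (y axis, from 0) of peroxisomal members in the 8 groups (x axis), with a circle per library and the mean and SD of 3; grey groups lack IL-13, orange groups have IL-13 without IL-33 and purple groups have both. Cat lies at 139.5 to 148 TPM in the orange groups and at 101 to 108 TPM in the purple ones, and Pex16 is high in both.

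The region upstream of Cat is shown because Cat was the member called in both directions by IL-13. It lies at chr2:103485161-103485403 on the minus strand (RefSeq, GRCm38.p6), and capitals mark 4 CCAAT boxes and 1 GC box (GGGCGG) on either strand and 1 hexamer AGGTCA, the unit that nuclear receptors bind.
Cat upstream: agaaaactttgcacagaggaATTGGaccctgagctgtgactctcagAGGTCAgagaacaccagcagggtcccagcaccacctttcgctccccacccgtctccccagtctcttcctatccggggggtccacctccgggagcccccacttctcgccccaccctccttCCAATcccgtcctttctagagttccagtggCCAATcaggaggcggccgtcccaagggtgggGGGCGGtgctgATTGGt

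RefSeq promoter windows, from 250 bases before to 50 after a start, were at hand for 35 members in 40 windows. On either strand GGGCGG was found in 30 of the 40, against 35.7% of all 32851 windows, and CCAAT in 16, against 37.4%. The hexamer AGGTCA was found in 6 (those of Acadm, Acadvl, Cat, Cpt1a, Echs1 and Scp2), against 16.3% of all windows. The direct repeat AGGTCANAGGTCA that PPARs bind was in none of the 40 and in 0.0396% of all windows, and TCAAGGTCA, the element of oestrogen-related receptors, in none and in 0.423%. Both of these contain the hexamer. The palindrome TTCNNNNGAA of STAT6 was in 1, that of Abcd3, against 6.95% of all windows. These matches describe letters in short windows and no binding.

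Few other members were lowered by IL-33 in the presence of IL-13. IL-33 added to IL-13 lowered Acaa1a, Cat, Acaa2 and Eci2 and raised none, where 1.74% of all tested genes were lower and 0.832% higher. Beside IL-17A it lowered Acaa1a and Cat and raised none (2.40% and 1.15% of all tested genes). These comparisons share libraries with those of IL-13 given above. Cat fell by 26.5% and 27.4% of its mean TPM and Acaa1a by 14.98% and 13.1%. Acaa2 and Eci2 were at 29.4 ± 0.786 and 10.2 ± 0.532 TPM with IL-33+IL-13 (SD, n = 3; limma adjusted p = 0.0344 and 0.0450), calls made in 23 and 14 of 32 settings. Averaged over both backgrounds IL-33 lowered 7 members (Acaa1a, Cat, Acaa2, Eci2, Cpt2, Hadh and Ppard) and raised Echs1, beside 4.48% and 2.53% of all tested genes. Of the mitochondrial calls in that average, those of Cpt2, Hadh and Acaa2 were lost with median-ratio scaling, with limma-voom and with the compared groups alone, which left 1 gene lower (Eci2). The rise of Echs1 was lost with median-ratio scaling, with the compared groups alone and without any 1 of 7 libraries, among them replicate 2 of the triple combination, without which Ppard was not called either. Hadha, Hadhb, Etfa, Etfb, Pex14 and Pex16 were not called in these comparisons or in either interaction.

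With all 3 cytokines against untreated cells, 6 of 18 mitochondrial enzymes were higher and none lower, and 2 of 17 peroxisomal genes were higher (Pex14 and Pex16) and 3 lower (Cat, Crot and Scp2). Of all tested genes 10.3% were higher and 17.7% lower. Acsl1 and Acsl3 were also lower, by 0.33 and 0.20 (limma adjusted p = 0.00480 and 0.0169). The mitochondrial genes higher numbered 1 with the compared groups alone, 3 without the 4 libraries of highest title number and 3 without replicate 3 of this group. Without its replicate 2, 7 mitochondrial enzymes were higher and 1 lower, and 1 activation and regulation gene was higher and 1 lower.

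No member was called with IL-33 or IL-17A in the absence of IL-13, nor when IL-17A was added to IL-13. IL-33, IL-17A and IL-33+IL-17A against untreated, and IL-17A added to IL-13, each called 0 of 13215 genes (0%) by limma, with 484, 469, 501 and 373 genes at an unadjusted p under 0.05. The members' differences had medians of -0.01, 0.04, 0.01 and -0.01, in that order. For Cpt1a the 95% interval was -0.19 to 0.15 with IL-33 and -0.20 to 0.14 with IL-17A.

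Levels of different genes can be set side by side only per exon length, from recovered reads over the annotated exons of all transcripts of a gene merged. On that scale Cat was the most abundant member in untreated cells, at 479 ± 7.12 TPM of exon length (SD, n = 3), before Etfb at 331 ± 12.1, Acadl at 292 ± 4.70 and Etfa at 268 ± 2.99. Pex3 and Ppargc1b were lowest, at 9.91 ± 1.69 and 11.4 ± 2.16, which did not differ beyond their spread. In the deposited TPM, which divides by the gene span, the order was led by Acaa1a, and Cat was at place 3.

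Other genes of these pathways were taken from lists chosen beside the members. Of 24 tested other mitochondrial genes 3 rose and 4 fell with IL-13 (median difference 0.01), of 37 other peroxisomal genes 15 rose and 8 fell (median 0.07), and of 13 PPAR target genes 5 rose and 3 fell (median 0.06), where 14.1% of all tested genes rose and 15.7% fell. For the mitochondrial list these counts were 12.5% and 16.7%, close to those shares. That list also held regulators such as Pparg and amino acid genes such as Ivd. Its shares are thus not those of fatty acid oxidation enzymes alone and cannot be set against those of the members. Abcd2, a transporter of very long chains, went from 21.3 ± 0.877 to 99.9 ± 2.87 TPM (SD, n = 3), a rise of 2.18, and Acaa1b, the near-identical copy of Acaa1a, rose by 1.97. Mpv17, a membrane protein gene, fell by 0.46 and was counted as peroxisomal only because that list held it. Pparg, the nuclear receptor of alveolar macrophage identity, rose by 1.35, the leucine-degrading dehydrogenase gene Ivd by 0.37 and the thiolase gene Acat1 by 0.27, while Acad12 fell by 0.48. Of the PPAR targets, Cd36, which takes up fatty acids, rose by 0.85, Fabp4 by 0.96 and Ucp3 by 1.09, and Fabp5 fell by 0.50. The largest limma adjusted p of these was that of Acat1, 0.000590.

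**Figure D5:**
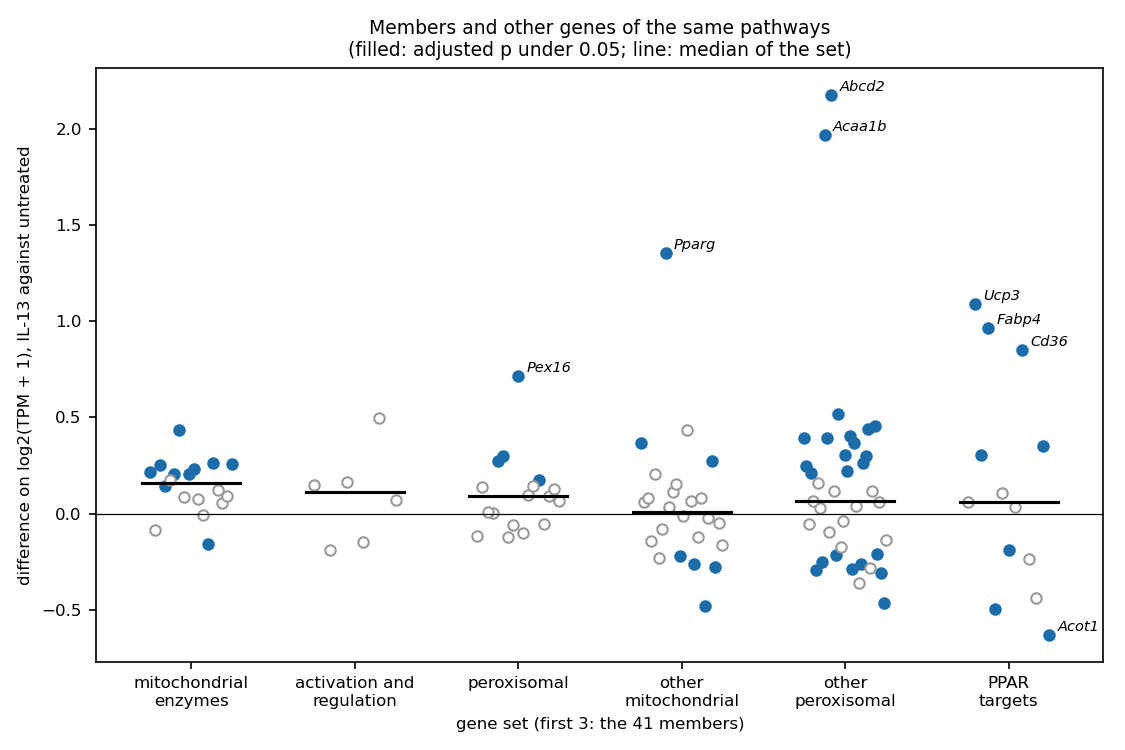
Difference on log2(TPM + 1) of IL-13 against untreated (y axis) for the 41 members in 3 sets and for 3 further lists (x axis), with a point per gene, filled where the adjusted p was under 0.05, and a line at the median of each set; sideways position is arbitrary. The medians of the 6 sets lie between 0.01 and 0.16, and the points farthest from 0 belong to the further lists.

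Of those 37 other peroxisomal genes 10 fell and none rose when IL-33 was averaged over both backgrounds with IL-13, with the peroxiredoxin gene Prdx5 by 0.18, Acaa1b by 0.34 and the isocitrate dehydrogenase gene Idh1 by 0.17. Of all tested genes 4.48% fell and 2.53% rose in this comparison. The averaged interaction was -0.16 for Prdx5 and -0.35 for Acaa1b (limma adjusted p = 0.0390 and 0.0422). Of 24 other mitochondrial genes Ivd and Acot9 fell, Ivd by 0.32 with an interaction of -0.32 (limma adjusted p = 0.000595). Of 13 PPAR targets 4 fell and 1 rose, among them Cd36 by 0.16, the triglyceride lipase gene Lpl by 0.25 and Txnip by 0.24, with Fabp5 higher by 0.19.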

How the data were processed

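Each of the 24 libraries came with a table of deposited TPM values for 17017 genes; the submitters' processing notes name STAR and mm10, and the sources used here name neither a counter nor a strand setting. In the deposited TPM values length is the gene span. By span 12 members overlap a coding gene. Acsl3, Etfb and Scp2 do so on the same strand, with Utp14b, Gm45233 and Podn, where no strand setting would part shared reads. Differences were tested with limma 3.58.1 (trend) on log2(TPM + 1), for the 13215 genes that reached 1 TPM in 3 libraries or more, with 8 group means, 16 residual degrees of freedom and Benjamini-Hochberg adjustment within each of 19 comparisons. The procedure was also run on simulated reads with the same setting of spread for every gene. That run does not show how well small differences of the real genes are recovered. Recovered reads assume that low values are whole multiples of 1 read, which was true, within 0.05 of a read, of 90.2% to 91.7% of values worth 20 reads or fewer. Alternatives were another pseudocount, filter or scaling, limma-voom, fewer groups and leaving out libraries. Members and lists were chosen with earlier results of these data known. Values per library are given for members called with a difference of at least 0.5 and for 12 fixed members. For most of these they cover the untreated and IL-13 groups only. Hadhb, Hadh, Acaa1a, Acads, Echs1, Etfa, Etfb, Pex14 and other members were chosen after their values were seen. Some of those are given by mean and SD or by range. Of each further list, up to 4 called genes with the smallest p are named, apart from some that are not reported here.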

Additional observations from a re-analysis of the deposited data

Results flagged for a closer look

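For 2 members the effect of IL-33 differed between cells with and without IL-13, by the test of the difference itself. For Cat the IL-33 difference with IL-13 minus that without, averaged over IL-17A, was -0.48 on log2(TPM + 1) (SE 0.032, limma adjusted p = 3.74e-08), and it was called in 32 of 32 settings. For Acaa1a it was -0.23 (SE 0.046, limma adjusted p = 0.00562), called in 31 of 32 settings. No setting changed how reads were divided between Acaa1a, its near-identical copy Acaa1b and the overlapping Myd88. The value for Acaa1a therefore stays uncertain.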

How the results depend on the processing

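No paired analysis was possible because the replicate numbers were given in accession order and the labels tie no library of one group to a library of another. Of the counts of called members under alternatives, 747 were within 1.5 times the main count and 59 were not; of 5080 values of single members none changed sign while called, 63 lost a call and 46 gained one. In IL-13 against untreated, mitochondrial genes lower numbered 0 with median-ratio scaling and 0 with limma-voom, and peroxisomal genes lower 1 at 5 TPM or more. For IL-33 added to IL-13, mitochondrial genes lower numbered 0 with median-ratio scaling, 0 with limma-voom, 0 with the compared groups alone and 1 without the 4 libraries of highest title number, and peroxisomal genes lower 1 with the compared groups alone. For IL-33 averaged with IL-13, mitochondrial genes higher numbered 0 and lower 1 with median-ratio scaling, 0 and 1 with the compared groups alone, and 1 were lower with limma-voom. For all 3 cytokines against untreated, mitochondrial genes higher numbered 1 with the compared groups alone and 3 without those 4 libraries, and peroxisomal genes 1 higher and 1 lower with the compared groups alone. The interaction called 1 member with the compared groups alone and 1 without those 4 libraries, and the averaged interaction 1 without them. The cause of these shifts was not tested, other than that some settings use fewer libraries. Leaving out each library in turn, IL-13 against untreated gave 7 to 10 mitochondrial genes higher and 0 to 1 lower, and 4 to 5 peroxisomal genes higher and 0 to 1 lower; the average gave 11 to 11 and 1 to 1, and 6 to 7 and 5 to 5. In the same way IL-33 added to IL-13 gave 0 to 2 mitochondrial and 2 to 3 peroxisomal genes lower, and IL-33 averaged with IL-13 gave 0 to 1 mitochondrial genes higher, 3 to 4 lower and 2 to 2 peroxisomal genes lower. All 3 cytokines gave 3 to 7 mitochondrial genes higher and 0 to 1 lower, and 2 to 2 peroxisomal genes higher and 2 to 3 lower, the interaction 1 to 2 and the averaged interaction 2 to 3. With median-ratio scaling IL-13 raised 2229 and lowered 2024 of all tested genes, against 1857 and 2075. The least covered member in any library had 99.8 reads.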
